A study of Rattus norvegicus with 18 samples.

Results

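Primary rat astrocytes exposed to fibrils of the 40-residue amyloid-β peptide (Aβ40) were compared with untreated astrocytes. The comparison takes the 3 libraries labelled as Aβ40-treated primary astrocytes and the 3 labelled as control primary astrocytes, 6 of the 18 libraries of the series. The others hold astrocytes exposed to fibrils of the longer Aβ42 peptide and microglia in the same 3 conditions. All cells were wild-type and came from brain. The astrocytes were cultured from the cortex of Sprague–Dawley rat pups 2 days after birth, kept without serum before treatment and exposed to fibrils at 25 µM, and control and treated cells were collected at 24 h. Polyadenylated RNA was sequenced, and each library was deposited as a table of whole-number read counts on 17307 gene symbols. The labels do not say whether replicates came from separate animals or cultures, so p-values measure the spread between these libraries, which may be technical.

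Astrocytes are the glia that take up glutamate and potassium around synapses, and they also carry receptors for danger signals and cytokines. Such receptors act in large part through nuclear factor κB (NF-κB), a family of transcription factors held in the cytoplasm by inhibitor proteins, which drives chemokines, cytokines, adhesion molecules and its own inhibitors. Interferons act through receptor kinases, STAT proteins and interferon regulatory factors on genes of antiviral defence and antigen presentation. Reactive astrocytes in culture are known for gaining genes of both kinds and for losing part of their supportive functions.

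The 6 libraries held between 3674043 and 19013919 counts on genes, and 26.0% to 34.2% of the counted reads fell outside single genes and were left out. Levels are given as scaled CPM, read counts brought to a common library size with TMM scaling, always in the order of replicates 1, 2 and 3. A count of 3, the floor used for detection, was worth between 0.158 and 0.817 CPM, and such limits cover counting error only. The first principal component held 77.1% of the variance of the 6 libraries and separated the groups. Control replicate 2 stood apart from the other controls on the component after it, which held 16.1%, and its log2 levels correlated with theirs across genes at 0.95, against 0.98 between control replicates 1 and 3. Astrocyte markers were high in all 6 libraries, with sums of 9763 to 12012 scaled CPM over 12 markers in controls and 7349 to 7601 with fibrils. Control libraries also held microglial RNA, described with the genes that fell.

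Among 11690 tested genes, 3888 (33.3%) passed the test between the groups, an adjusted p-value under 0.05 in edgeR's quasi-likelihood test. Of these, 1739 (14.9% of tested genes) were higher and 2149 (18.4%) were lower with fibrils. These shares are the background for every count of list members below. At a fold change of 5 or more, 330 genes (2.82%) were higher and 304 (2.6%) were lower. The groups were fully separated, with no overlap between their libraries, for 5050 genes (43.2%), among them all 330 of the 5-fold higher and 303 of the 5-fold lower genes. The median log2 fold change over all tested genes was 0.0017. Where all libraries of a group had at most 3 counts of a gene, its fold is given below as a ratio of depth-scaled summed counts with a 95% counting interval, or as a lower bound where the group had no read. In 68 of the 5-fold higher genes all control libraries, and in 35 of the 5-fold lower genes all treated libraries, were at that limit.

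**Figure D1:**
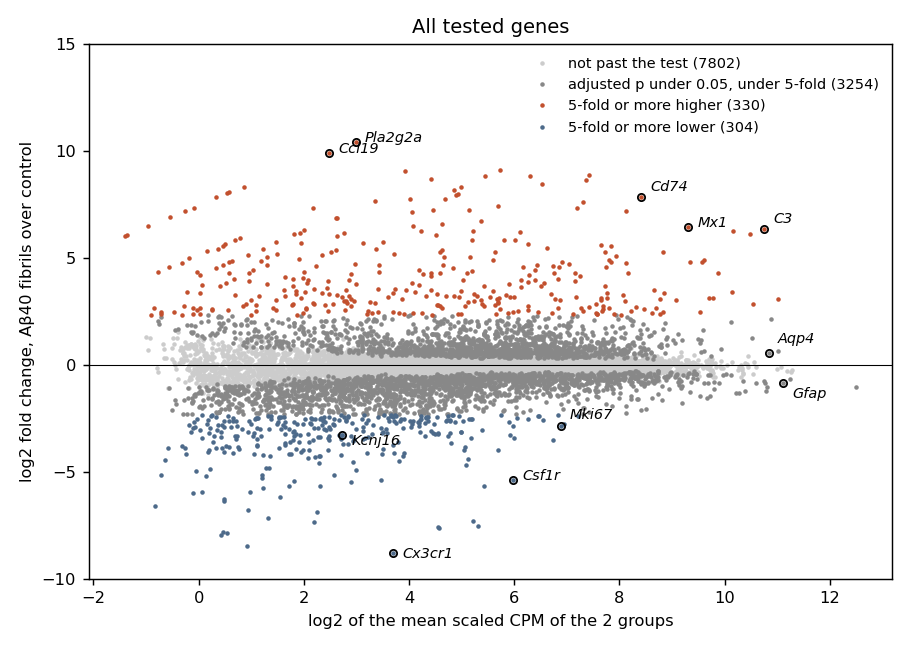
Each point is 1 of 11690 tested genes, with the log2 of its mean scaled CPM over the 2 groups on the horizontal axis and its fitted log2 fold change on the vertical axis. The 330 genes that were 5-fold or more higher (red) reach large changes at all levels, up to C3 among the highest genes, while the 304 that were 5-fold or more lower (blue) lie mostly at low and middle levels; points at the far left and far up or down rest on few reads in 1 group.

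Among genes with at least 10 counts in every library of the higher group, no overlap and at least 2-fold change, the 15 that rose with the smallest p-values covered several functions. C3 and Cfb are the central component of complement and a protease of its alternative pathway. Cfb rose from 37, 43.3 and 39.6 scaled CPM in controls to 2449, 2903 and 3104 with fibrils (log2 fold change 6.14, SE 0.15, adjusted p = 2.26e-09). Irf7, the transcription factor that amplifies type I interferon production, had 23.1, 24.4 and 22.2 in controls and 883, 814 and 967 with fibrils (log2 fold change 5.26, SE 0.13, adjusted p = 2.26e-09). Both groups were narrow for this gene. Ubd encodes FAT10, a ubiquitin-like modifier induced by inflammatory cytokines, and it stood at 0.557, 0.718 and 0.563 in controls and 102, 99.3 and 108 with fibrils, a log2 fold change of 7.41. The others included Steap4 (7.35), Ptges (7.24), Cd83 (4.80), Prr16 (5.86), Cyp1b1 (5.46), Sod2 (4.30), Slfn2 (4.20), Mmp9 (6.25), Asgr1 (4.92) and the RNA sensor gene Dhx58 (4.31), each given as log2 fold change, as are all further values in brackets after a gene or after "rose by" and "stood at".

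**Figure D2:**
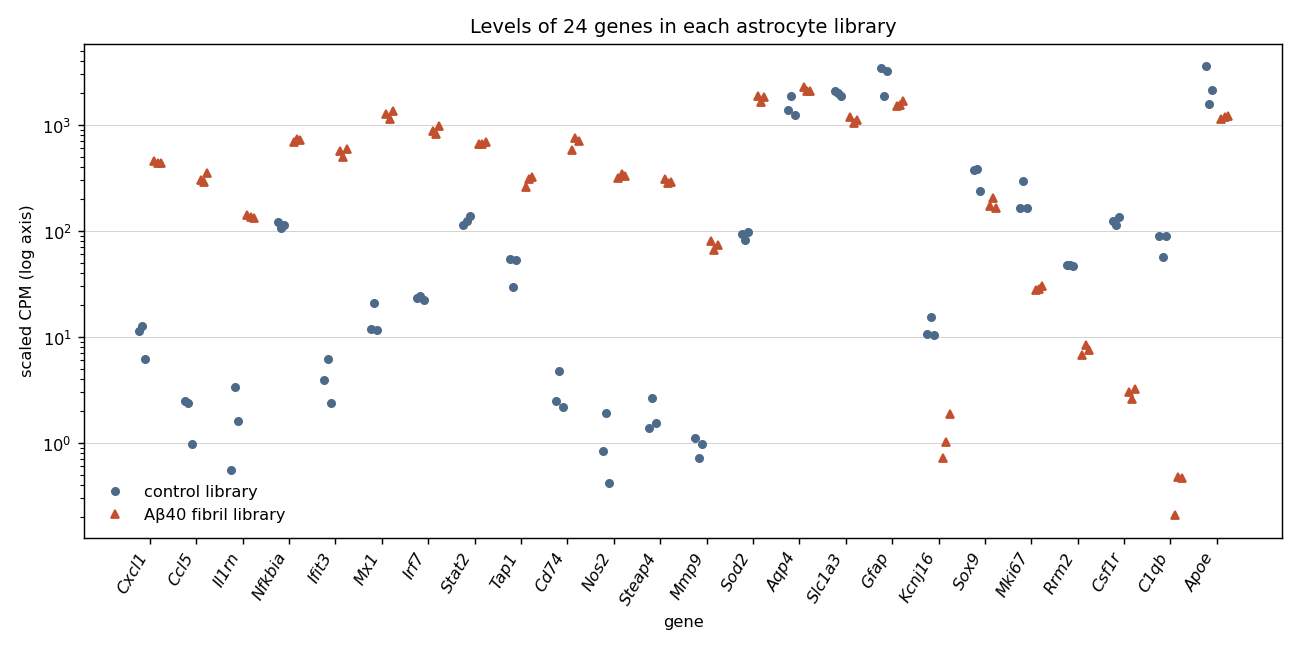
Scaled CPM on a log axis of 24 genes in each of the 3 control libraries (circles) and the 3 Aβ40 fibril libraries (triangles), 1 point per library. The groups do not overlap for any of the 24 genes; of the astrocyte genes Aqp4, Slc1a3, Gfap, Kcnj16 and Sox9, Aqp4 lies higher and the others lower with fibrils.

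CXC chemokines, which attract neutrophils and lymphocytes, rose strongly. Of 14 members 13 were tested, 11 rose, 10 of them at least 5-fold, none fell, and the median log2 fold change was 5.85 (14.9% of all tested genes rose). Cxcl1, a neutrophil attractant, had 11.4, 12.7 and 6.19 scaled CPM in the control libraries and 459, 437 and 440.3 with fibrils (log2 fold change 5.55, SE 0.24, adjusted p = 3.57e-08). Cxcl10, which draws T cells through CXCR3, had 12.8, 23 and 8.86 and 469, 369.8 and 447 (log2 fold change 4.91, SE 0.30, adjusted p = 4.84e-07). Control replicate 2 was the highest control library for both, and every treated library lay far above it. Cxcl6 was the highest member at 8.84, from 0.557, 0.957 and 0.0703 to 176, 134 and 163. Cxcl9, Cxcl3, Cxcl13 and Cxcl17 had at most 3 counts in each control library, and their summed counts were 333 (interval 129.9 to 1223), 166 (interval 76.1 to 453), 456 (interval 126 to 3772) and 271 (interval 116 to 835) times higher with fibrils. Cxcl16, a membrane-bound ligand, and Cxcl12, which guides progenitor cells and lymphocytes, rose from higher starting levels, by 3.04 and 2.11. Cxcl14 (0.44, adjusted p = 0.068) and Pf4 (-0.24, adjusted p = 0.514) did not pass the test.

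Among CC chemokines and fractalkine, 13 of 19 members were tested and 11 rose, 9 of them at least 5-fold. The median was 3.35, or 3.34 when members at the floor were set to their bounds. Ccl5, an attractant of T cells and monocytes, stood at 2.5, 2.39 and 0.985 in controls and 303, 287 and 352 with fibrils (log2 fold change 7.60, SE 0.28, adjusted p = 1.09e-08). Ccl2, the main attractant of monocytes, had 79.6, 98.6 and 69.9 and 942, 743 and 821 (log2 fold change 3.34, SE 0.17, adjusted p = 1.14e-07). Cx3cl1, or fractalkine, whose receptor is carried by microglia, rose from 48.1, 29.2 and 39.3 to 386, 414 and 384 (log2 fold change 3.35, SE 0.17, adjusted p = 1.35e-07). Each of these genes had treated libraries well above all controls. Ccl20 had 0.557, 1.68 and 0.422 and 399, 278 and 352. Ccl19, a ligand for CCR7, had no read in any control library and 484 in the treated libraries, at least 18.9-fold higher against a limit of 3 counts per library. Ccl6 fell (-2.16), and Ccl27 did not pass the test (-0.32). Of the 11 that rose, 4 were among the genes at least 10-fold higher in untreated microglia than in untreated astrocytes, Ccl3 among them.

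NF-κB subunits and regulators rose nearly throughout. Of 24 members 20 were tested, 17 rose and none fell, with a median of 2.14 and 9 members past 5-fold. Nfkbia, the inhibitor that NF-κB itself induces, had 122, 107 and 113 scaled CPM in controls and 695, 732 and 714 with fibrils (log2 fold change 2.65, SE 0.11, adjusted p = 2.39e-08). Birc3, a ubiquitin ligase of the TNF receptor complex, had 8.35, 16.5 and 8.02 and 431, 397 and 409 (log2 fold change 5.28, SE 0.25, adjusted p = 6.60e-08). All treated libraries lay far above the controls, among which replicate 2 was the highest for Birc3. The subunit genes rose less, Nfkb1 by 2.14, Nfkb2 by 2.59 and Rela by 1.30, than the atypical inhibitor gene Nfkbiz, at 3.97, and the kinase gene Map3k8, at 3.55. Map3k14, the kinase of the alternative pathway, stood at -0.17 (adjusted p = 0.587), Chuk at 0.38 and Tnip2 at 0.29, none of them past the test.

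The 250 bases before the annotated start of these genes were read from RefSeq on assembly GRCr8, which is newer than the rn5 assembly of the counts. They were searched on both strands for GGGA followed by 2 bases of any kind and TTCC, letters of the κB site to which NF-κB binds. The letters occurred in 4 of the 11 CXC chemokine promoters found (36.4%) and in 3 of 17 of the NF-κB list (17.6%), against 1.07% of all 27457 rat promoters. A match is a description and not evidence of binding. The promoters of 4 genes are printed 5′ to 3′ on the strand of the gene, because they belong to members described above and hold the letters, which are in capitals. Cxcl10 also holds GAAA, 2 bases of any kind and GAAA, letters of the interferon-stimulated response element (ISRE), near its upstream end. The windows are chr14:17479322-17479571 (minus strand) for Cxcl1, chr14:17596418-17596667 (minus) for Cxcl6, chr14:15988816-15989065 (plus) for Cxcl10 and chr6:78597073-78597322 (minus) for Nfkbia. In Cxcl1, Cxcl6 and Cxcl10 a match on each strand overlaps in all but 1 base, so that a single run of capitals holds both.
Cxcl1: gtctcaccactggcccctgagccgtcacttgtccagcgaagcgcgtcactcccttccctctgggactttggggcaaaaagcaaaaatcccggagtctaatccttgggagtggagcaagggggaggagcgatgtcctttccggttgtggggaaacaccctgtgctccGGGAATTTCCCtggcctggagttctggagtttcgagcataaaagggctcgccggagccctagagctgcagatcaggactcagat
Cxcl6: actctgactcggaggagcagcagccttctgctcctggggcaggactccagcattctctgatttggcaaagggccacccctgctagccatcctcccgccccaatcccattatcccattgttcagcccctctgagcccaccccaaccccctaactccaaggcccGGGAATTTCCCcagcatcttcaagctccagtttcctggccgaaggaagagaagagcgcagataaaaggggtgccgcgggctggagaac
Cxcl10: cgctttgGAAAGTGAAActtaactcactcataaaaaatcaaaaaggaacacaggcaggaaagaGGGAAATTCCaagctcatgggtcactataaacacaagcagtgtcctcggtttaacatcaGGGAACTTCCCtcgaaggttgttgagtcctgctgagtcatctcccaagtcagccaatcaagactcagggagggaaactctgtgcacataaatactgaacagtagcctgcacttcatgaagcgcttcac
Nfkbia: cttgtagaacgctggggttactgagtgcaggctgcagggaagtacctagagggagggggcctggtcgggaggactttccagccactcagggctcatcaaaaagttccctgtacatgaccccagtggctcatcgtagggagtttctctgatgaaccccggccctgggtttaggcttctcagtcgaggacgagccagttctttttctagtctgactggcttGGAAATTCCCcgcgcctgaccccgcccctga

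Cytokines of the interleukin-1 family rose together with the natural antagonist of the receptor. Il1b had 0.278, 1.2 and 0.774 scaled CPM in controls and 86.9, 76.2 and 82.2 with fibrils (log2 fold change 6.70, SE 0.24, adjusted p = 1.09e-08), and Il1rn, the antagonist, had 0.557, 3.35 and 1.62 and 142, 136 and 132 (log2 fold change 6.23, SE 0.29, adjusted p = 6.20e-08). Of 17 tested members of the interleukin-1 and inflammasome list, 8 rose (47.1%) and 3 fell (17.6%), against 14.9% and 18.4% of all tested genes. Il1a (6.05), the interleukin-18 inhibitor Il18bp (3.06), the receptor Il1r1 (1.82), Casp4 (2.12), Casp1 (1.44) and the pore protein gene Gsdmd (1.38) rose, while the inflammasome sensors Nlrp3 (-0.65), Nlrc4 (-1.61) and Nlrp1a (-1.87) fell. All 3 sensors that fell and 4 of the 8 members that rose belong to the genes at least 10-fold higher in untreated microglia.

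In the interleukin-6 family, 6 of 12 tested members rose and none fell, though 2 fell without control replicate 2. Il6 had 2 reads in all controls and 304 with fibrils, a ratio of 77.1 (interval 21.1 to 639). The receptor chains rose more modestly, with Il6st, the shared signal chain, at 425, 486 and 409.8 in controls and 1102, 946 and 965 with fibrils (log2 fold change 1.19, SE 0.12, adjusted p = 1.67e-05), Il6r at 2.10 and Osmr at 1.49. Lif, a cytokine of the same family, rose by 3.22, from 5.29, 5.74 and 4.43 to 45.2, 46.5 and 48.4. Cntfr, a receptor chain near the lower end of the list, stood at -0.74 and did not pass the test. Among 20 tested TNF ligands and receptors, 11 rose (55%, against 14.9% of all tested genes) and 2 fell (10%, against 18.4%). Without control replicate 2 the number that fell was 4. Of the 11 that rose, 4 were at least 10-fold higher in untreated microglia than in untreated astrocytes. Tnf itself stayed at a low level, 1.11, 0 and 2.25 in controls and 9.04, 12.8 and 10.2 with fibrils (log2 fold change 2.83, SE 0.42, adjusted p = 3.88e-04), with no read in control replicate 2. The costimulatory receptor Tnfrsf9 had 9.74, 3.11 and 5.06 and 130.1, 146 and 137 (log2 fold change 4.59, SE 0.28, adjusted p = 4.41e-07), Fas rose by 1.75, and the death receptor Tnfrsf21 (-1.78) and the receptor Tnfrsf11a (-1.84) fell. Tnfsf15 had the highest fitted change of the list on 2 reads in all controls and 129 with fibrils, a ratio of 32.7 (interval 8.87 to 273).

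Of Toll-like and NOD receptors with their adaptors, 8 of 18 tested members rose and 5 fell. Tlr2, which binds bacterial lipopeptides and amyloid, rose from 5.29, 7.9 and 9.0 to 74.2, 63.6 and 74.8 (log2 fold change 3.20, SE 0.19, adjusted p = 3.28e-07), and the double-stranded RNA receptor Tlr3 (1.01), the adaptor Myd88 (0.83) and the negative regulator Irak3 (1.88) rose as well. Nod2, at 7 reads in all controls and 762 with fibrils, had a ratio of 55.2 (interval 26.7 to 138). Tlr1 (-1.76), Tlr4 (-1.56), Tlr7 (-2.61) and Tlr8 (-3.63) fell with the kinase Irak1 (-0.34). By the definition above 8 of the 18 tested members are microglia-enriched, 4 of the 5 that fell among them.

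Every tested interferon-stimulated gene rose. Of 52 members 44 were tested and all 44 passed the test upward, 30 of them at least 5-fold, with a median log2 fold change of 3.12, or 3.11 when the member at the floor was set to its bound. No control library reached any treated library for any of the 44. Ifit3, which blocks translation of foreign RNA, had 3.9, 6.22 and 2.39 scaled CPM in controls and 565, 499 and 592 with fibrils (log2 fold change 7.21, SE 0.28, adjusted p = 1.68e-08). Mx1, a GTPase that traps viral particles, had 12, 21.1 and 11.7 and 1273, 1138 and 1356 (log2 fold change 6.43, SE 0.23, adjusted p = 1.09e-08). Isg15, a ubiquitin-like modifier, had 20.3, 23.7 and 10.8 and 409, 398 and 432 (log2 fold change 4.56, SE 0.25, adjusted p = 2.15e-07). Control replicate 2 was the highest control for these 3 genes. Sensors of foreign RNA rose by 1.92 (Ddx58), 2.46 (Ifih1) and 4.31 (Dhx58), the guanylate-binding proteins Gbp5 and Gbp4 by 4.83 and 3.85, and the oligoadenylate synthetases Oas1a and Oas2 by 4.83 and 5.36. The transmembrane proteins Ifitm2, Ifitm3 and Ifitm1 had the smallest changes with Trim25, and Ifitm1, at 0.48 (adjusted p = 0.0212), was the lowest member. Its call was lost without control replicate 3 and without Aβ40 replicate 2 or 3, and the calls of the other 43 were kept whichever library was left out. Oas, Gbp, Mx and Ifitm genes have near-identical copies, between which the counting could have divided reads, so their single values are uncertain.

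The signal chain of the interferon receptors rose with them, though less. Among 28 tested IRF, STAT, JAK and SOCS genes, 19 rose and none fell, with a median of 0.97. Stat2 had 114, 123 and 137 in controls and 654, 653 and 684 with fibrils (log2 fold change 2.41, SE 0.11, adjusted p = 6.89e-08). Irf1 (2.53), Irf9 (1.76), which binds STAT proteins in the complex that recognises the ISRE, Jak2 (2.07) and the interferon-γ receptor chains Ifngr1 (1.26) and Ifngr2 (1.21) rose. Irf3, which is activated without new synthesis, stood at 0.10 and Irf8, a factor of microglia and macrophages, at -0.011, neither past the test. Of the feedback inhibitors, Socs1 rose by 2.08, while Socs3 had 38.1, 11.2 and 65.2 in controls and 57.8, 74.5 and 67.5 with fibrils, with control replicate 3 inside the treated range (0.76, adjusted p = 0.205). Socs4 was the lowest member at -0.16.

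Genes of antigen presentation rose in both classes. For class I, which shows peptides from inside the cell, 20 of 25 tested members rose and none fell (1 without control replicate 3), with a median of 2.10. B2m, the light chain of all class I molecules, had 1036, 989 and 575 in controls and 2137, 1916 and 2167 with fibrils (log2 fold change 1.26, SE 0.20, adjusted p = 4.97e-04). Tap1, a subunit of the peptide transporter, had 54.5, 29.7 and 53 and 261, 310.5 and 319 (log2 fold change 2.69, SE 0.23, adjusted p = 5.67e-06). The immunoproteasome subunits Psmb8, Psmb9 and Psmb10 rose by 3.19, 3.08 and 2.66, and the activator subunits Psme1 and Psme2 by 1.06 and 1.69. The general endoplasmic reticulum chaperones of the list did not pass the test, with Calr at 0.028, Canx at -0.10, Pdia3 at 0.27 and the activator gene Psme3 at -0.18. The RT1 heavy chain genes are near-identical copies, and their values, from 5.64 for RT1-T24-3 to 0.60 for RT1-T24-1 (adjusted p = 0.364), are uncertain for that reason.

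For class II, which presents peptides taken up from outside, 7 of 12 tested members rose and 2 fell. Cd74, the invariant chain, had 2.5, 4.79 and 2.18 scaled CPM in controls and 575, 757 and 701 with fibrils (log2 fold change 7.87, SE 0.26, adjusted p = 8.08e-09). Ciita, the master regulator of class II transcription, had 3 reads in all controls and 1439 with fibrils, a ratio of 243 (interval 83 to 1180.4). RT1-Da had 0, 1.44 and 0.352 and 173, 182 and 194. In all 3 treated libraries these members were far above every control. RT1-Ba, with the highest fitted change of the list, had a ratio of 493 (interval 192 to 1810.2). The fitted median of the list was 7.16, and it was 4.06 when members at the floor were set to their bounds. The costimulatory molecule Cd86 (-2.98) and the lysosomal protease Ctss (-0.68) fell, and Cd80 stood at 0.59 (adjusted p = 0.135). Ctss is also a member of the microglial marker list. Of the 2 that fell, 1 was at least 10-fold higher in untreated microglia than in untreated astrocytes, as was 1 of the 7 that rose.

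The ISRE letters occurred in 8 of the 23 class I promoters found in RefSeq (34.8%), against 3.29% of all rat promoters. CCAAT, bound by the factor NF-Y, occurred in 16 of them (69.6%) and in 7 of 10 class II promoters (70%), against 34.3%. The CCAAT share was not particular to these lists, since 20 of 27 promoters of the unfolded protein and heat shock list held it (74.1%). For the interferon-stimulated genes RefSeq promoters were matched for 75% of tested members, below the 80% set as a minimum, so that check is void and no share is given. Promoters of 3 interferon-stimulated genes and of Tap1 and Psmb10 are printed as before, with the ISRE letters in capitals on either strand and, in Tap1, the κB letters as well. They show the same element at different distances from the start. The windows are chr1:241527076-241527325 (plus strand) for Ifit3, chr6:48788121-48788370 (minus) for Rsad2, chr16:18254968-18255217 (minus) for Bst2, chr20:4668544-4668793 (minus) for Tap1 and chr19:50743293-50743542 (minus) for Psmb10. The Ifit3 match begins 44 bases before the start and those of Psmb10 begin 73 and 17 bases before it. Rsad2, the antiviral protein viperin, had 13.4, 22.7 and 8.3 in controls and 529, 403 and 489.7 with fibrils, and Bst2, or tetherin, had 54, 28 and 51.8 and 351, 374 and 440.4.
Ifit3: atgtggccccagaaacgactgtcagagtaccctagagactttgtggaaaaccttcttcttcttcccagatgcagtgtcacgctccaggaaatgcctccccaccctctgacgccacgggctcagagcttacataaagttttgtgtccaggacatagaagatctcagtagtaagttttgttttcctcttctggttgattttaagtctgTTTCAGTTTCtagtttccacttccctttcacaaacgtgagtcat
Rsad2: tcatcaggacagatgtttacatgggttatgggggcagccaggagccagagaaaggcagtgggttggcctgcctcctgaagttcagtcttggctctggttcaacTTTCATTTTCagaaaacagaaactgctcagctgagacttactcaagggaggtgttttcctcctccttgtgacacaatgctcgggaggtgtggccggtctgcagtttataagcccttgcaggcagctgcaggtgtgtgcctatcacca
Bst2: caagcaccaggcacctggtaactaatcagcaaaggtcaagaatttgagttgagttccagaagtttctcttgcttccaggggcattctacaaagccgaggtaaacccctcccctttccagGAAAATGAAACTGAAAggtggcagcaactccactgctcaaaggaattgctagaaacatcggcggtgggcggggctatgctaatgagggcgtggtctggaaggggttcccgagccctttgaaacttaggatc
Tap1: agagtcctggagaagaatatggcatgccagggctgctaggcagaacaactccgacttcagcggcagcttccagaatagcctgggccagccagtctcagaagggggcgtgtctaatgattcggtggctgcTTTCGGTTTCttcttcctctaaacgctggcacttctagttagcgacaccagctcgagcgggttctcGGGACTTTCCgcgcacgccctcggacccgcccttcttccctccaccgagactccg
Psmb10: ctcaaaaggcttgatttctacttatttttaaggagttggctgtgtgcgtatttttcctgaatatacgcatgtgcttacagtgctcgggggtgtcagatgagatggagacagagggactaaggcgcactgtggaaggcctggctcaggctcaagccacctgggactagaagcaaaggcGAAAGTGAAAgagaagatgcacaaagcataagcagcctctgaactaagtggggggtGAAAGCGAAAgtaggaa

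**Figure D3:**
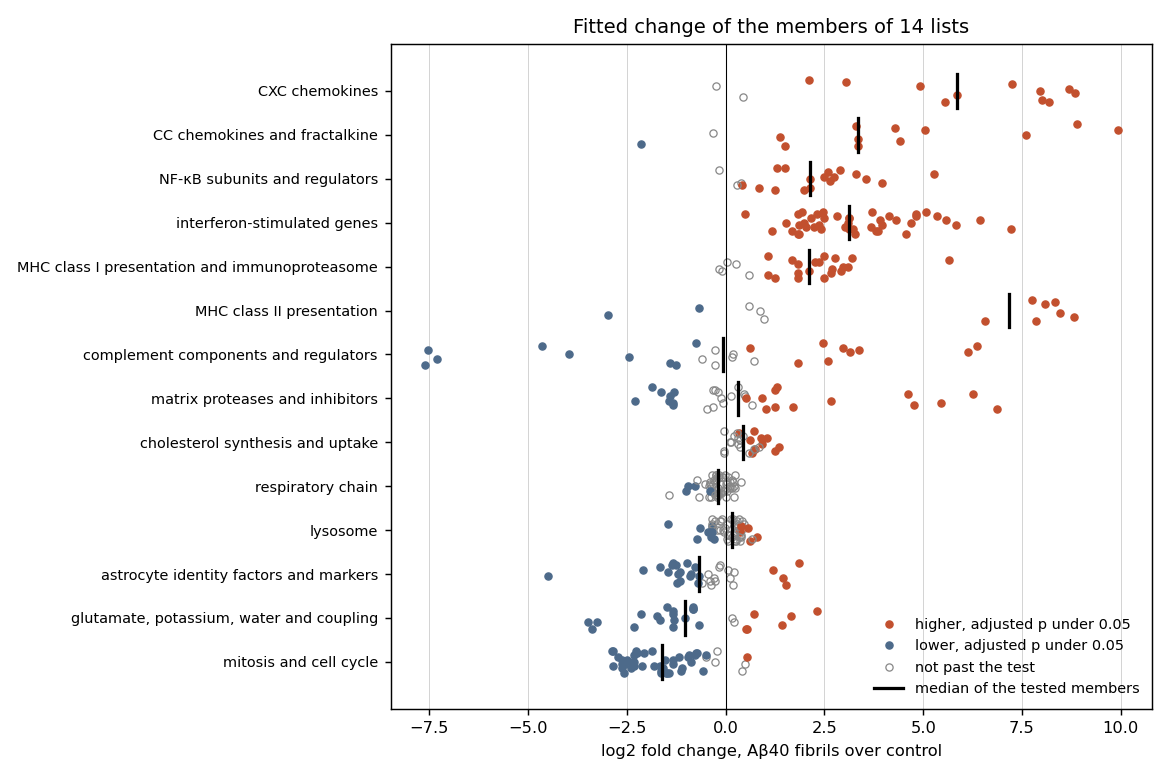
Fitted log2 fold changes (horizontal axis) of the tested members of 14 lists, 1 point per gene, filled where the adjusted p-value was under 0.05 and open otherwise, with a black bar at the median. The bar lies at 5.85 for CXC chemokines, 3.12 for interferon-stimulated genes and -1.60 for mitosis and cell cycle, and close to 0 for the respiratory chain and lysosome; the class II bar, at 7.16, rests on members near the detection limit in controls.

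Complement genes moved in both directions. Of 24 tested components and regulators, 9 rose and 9 fell. The early proteases and the central components rose, C1s from 171, 193 and 170.0 to 1531, 1558 and 1637 (log2 fold change 3.15, SE 0.11, adjusted p = 1.09e-08), C1r from 252, 208 and 228 to 1113, 1372 and 1284 (log2 fold change 2.45, SE 0.13, adjusted p = 1.51e-07), C2 by 2.60 and C4a by 1.82, beside Cfb above and C3, the highest at 6.37. The regulator Clu, or clusterin, rose by 0.63. The recognition subunits C1qa, C1qb and C1qc fell, C1qa with a log2 fold change of -7.61 and C1qb from 90.2, 56.5 and 89.6 to 0.208, 0.481 and 0.465 (log2 fold change -7.55, SE 0.30, adjusted p = 2.10e-08). The receptors C3ar1 (-3.98) and C5ar1 (-2.44) fell. Cd59, which blocks the membrane attack complex, fell as well (-0.75). C1q and the receptors are expressed by microglia, and of the 9 members that fell 4 were at least 10-fold higher in untreated microglia than in untreated astrocytes.

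Enzymes of prostaglandin and nitric oxide synthesis included genes that rose sharply from low levels. Among 20 tested prostaglandin and leukotriene genes, 7 rose (35%, against 14.9% of all tested genes) and 4 fell (20%, against 18.4%). Ptgs2, the inducible cyclooxygenase, had 1.11, 0.479 and 0.422 and 18.2, 12 and 15.1 (log2 fold change 4.72, SE 0.31, adjusted p = 9.16e-07), and Ptges, the synthase that turns its product into prostaglandin E2, had 0.278, 0.479 and 0.492 and 64.6, 71.9 and 73.5 (log2 fold change 7.24, SE 0.20, adjusted p = 3.58e-09). Pla2g2a, a secreted phospholipase, had no control read and 697 treated reads, at least 27.0-fold higher. The constitutive Ptgs1 did not pass the test (-0.54). Hpgds (-1.88) and Tbxas1 (-2.22), enzymes of other branches known from microglia and macrophages, and the receptor Ptger3 (-0.75) fell. Alox5ap, the partner of 5-lipoxygenase, had 69 control reads and 2 treated reads, lower by a ratio of 68.1 (interval 18.1 to 573). In the nitric oxide list 6 of 15 tested members rose (40%, against 14.9% of all tested genes). Another 3 fell (20%, against 18.4%), or 1 without control replicate 1, Aβ40 replicate 2 or Aβ40 replicate 3. Nos2, the inducible synthase, had 0.835, 1.91 and 0.422 in controls and 316, 341 and 328 with fibrils (log2 fold change 8.63, SE 0.30, adjusted p = 1.09e-08). Gch1, which makes the cofactor tetrahydrobiopterin, rose by 4.33, Ass1, which regenerates arginine, by 2.37, and the arginine transporter Slc7a2 by 2.04. Ddah1, which breaks down inhibitors of the synthases, fell (-1.001).

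In the list of iron handling, metallothionein and zinc genes, 7 of 21 tested members rose (33.3%, against 14.9% of all tested genes). Only 2 fell (9.52%, against 18.4%). Steap4, a metal reductase, had 1.39, 2.63 and 1.55 in controls and 305, 281 and 286 with fibrils (log2 fold change 7.35, SE 0.19, adjusted p = 2.28e-09). The iron carriers Lcn2 and Tf rose by 6.25 and 2.86, the importers Slc39a14 and Slc11a2 by 2.67 and 2.32, and the ferroxidase Cp by 2.13, while Tfrc, the transferrin receptor, fell from 217, 310.0 and 232 to 146, 105 and 125 (log2 fold change -1.01, SE 0.18, adjusted p = 0.00113) and Heph, another ferroxidase, fell (-2.45). Ferritin chains Fth1 (-0.27) and Ftl1 (0.25) did not pass the test. In the antioxidant list 7 of 33 rose (21.2%) and 8 fell (24.2%), or 4 to 5 without control replicate 1, Aβ40 replicate 2 or Aβ40 replicate 3. The shares of all tested genes were 14.9% higher and 18.4% lower. Sod2, the mitochondrial superoxide dismutase, had 93.5, 81.4 and 97.6 and 1878, 1643 and 1848 (log2 fold change 4.30, SE 0.13, adjusted p = 4.78e-09), whereas Sod1 (-0.31) and Sod3 (0.27) did not pass. The detoxifying enzyme gene Nqo1 (1.23) and its activator Nfe2l2 (1.01) rose, but Hmox1 (0.17), Gclm (-0.11), Srxn1 (-0.13) and Slc7a11 (-0.47), targets of the same factor, did not. The phagocyte oxidase subunits Cybb (-3.37), Ncf1 (-2.38) and Ncf4 (-0.88), known from microglia, fell, and Cyba, the chain they share with other oxidases, rose by 1.28.

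Of matrix proteases and their inhibitors, 13 of 33 tested members rose (39.4%, against 14.9% of all tested genes) and 8 fell (24.2%, against 18.4%). Mmp9, a gelatinase, had 1.11, 0.718 and 0.985 scaled CPM in controls and 79.5, 66.4 and 73.8 with fibrils (log2 fold change 6.25, SE 0.20, adjusted p = 5.53e-09). Mmp3, or stromelysin, had 2 control reads and 522 treated reads, a ratio of 132 (interval 36.4 to 1095), and Mmp13 had a ratio of 49.7 (interval 13.6 to 413). Plau, a plasminogen activator, fell (-1.86). Among the tissue inhibitors, Timp1 rose by 0.52, Timp2 stood at -0.33 (adjusted p = 0.102), and Timp3 (-1.32) and Timp4 (-2.30) fell. Of the adhesion molecules that bind leukocytes, Vcam1 rose from 43.7, 76.8 and 33 to 1568, 1415 and 1519.7 (log2 fold change 4.89, SE 0.28, adjusted p = 2.87e-07) and Icam1 from 93, 67.5 and 94 to 518, 566 and 563 (log2 fold change 2.69, SE 0.15, adjusted p = 2.06e-07). In the list of adhesion molecules and integrins 7 of 21 rose (33.3%, against 14.9% of all tested genes) and 8 fell (38.1%, against 18.4%). The integrin chains Itga4, Itga11 and Itgb2 and the selectin ligand Selplg were among those that fell, at -4.05, -3.86, -1.49 and -2.78. Of the 8 that fell, 3 were at least 10-fold higher in untreated microglia than in untreated astrocytes. Madcam1 had the highest value, 4.97, on 0.278, 0 and 0.281 in controls and 6.96, 8.24 and 6.84 with fibrils.

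Collagens and other matrix proteins moved down more often than up, with 20 of 53 lower and 9 higher (37.7% against 18.4% of all genes were lower). Bgn, a small proteoglycan, had 218, 198 and 136 in controls and 55.2, 54.2 and 46.5 with fibrils (log2 fold change -1.82, SE 0.17, adjusted p = 1.34e-05), and Thbs4, a thrombospondin, 39, 40.7 and 39.7 and 3.33, 4.17 and 5.38 (log2 fold change -3.19, SE 0.22, adjusted p = 1.05e-06). The brain proteoglycans Bcan (-1.06) and Vcan (-0.65) fell. Has2, the hyaluronan synthase, rose from 2.5, 2.63 and 1.69 to 73.5, 66.5 and 68.5 (log2 fold change 5.05, SE 0.20, adjusted p = 2.07e-08), and the basement membrane genes Col4a1, Lamc1 and Lama1 rose by 1.21, 0.92 and 2.85. In the TGF-β and BMP list 6 of 39 rose (15.4%, against 14.9% of all tested genes), or 11 without control replicate 2. In the same list 15 fell (38.5%, against 18.4%). Tgfb1 fell from 41.7, 39.97 and 37.1 to 13.5, 13.7 and 12 (log2 fold change -1.59, SE 0.13, adjusted p = 4.66e-06), as did its carrier genes Ltbp2 (-1.95), Ltbp3 (-0.69) and Ltbp4 (-1.12) and the coreceptor Eng (-3.93), whereas Gdf15, a stress-induced ligand, rose by 3.41, Fst, which blocks activins, by 1.72, Ltbp1 by 1.29 and Smad3 by 1.18. Tgfb1 was 12.1 times and Eng 6.44 times higher in untreated microglia than in untreated astrocytes.

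Of 50 Notch, Wnt and Hedgehog genes, 7 were higher (14%, against 14.9% of all tested genes). Lower were 17 (34%, against 18.4%), or 26 without control replicate 2. The Notch ligand Jag1 rose from 14.5, 15.8 and 12.6 to 62.6, 52.5 and 53.7 (log2 fold change 1.99, SE 0.16, adjusted p = 2.83e-06), while Notch1 (-0.55), Notch3 (-1.87) and the ligand Dll1 (-1.18) fell. Of the Wnt ligands, Wnt7a fell from 69.9, 55.3 and 70.8 to 18.3, 22.7 and 20.3 (log2 fold change -1.68, SE 0.15, adjusted p = 7.08e-06), and Wnt5a (-1.57), Wnt7b (-1.58) and Wnt5b (-3.46) fell with the Wnt target genes Axin2 (-0.93), Lef1 (-2.22) and Nkd1 (-1.25). Wnt10a, with no control read and 73 treated reads, was at least 2.85-fold higher. Among growth and colony-stimulating factors 16 of 49 rose (32.7%, against 14.9% of all tested genes) and 12 fell (24.5%, against 18.4%). Csf3, which drives neutrophil production, had 1 control read and 1333 treated reads, a ratio of 676 (interval 121 to 26709), and Csf1, the survival factor of microglia, rose from 219, 239 and 189 to 653, 739 and 676 (log2 fold change 1.68, SE 0.12, adjusted p = 1.96e-06). Angptl4 rose by 4.59 and Igfbp3 by 2.42. Ptn (-1.30), Igfbp5 (-1.48) and Cntn1 (-1.496) fell. Igf1, made by microglia in brain, fell (-5.36) and was 22.02 times higher in untreated microglia, and Csf1r is taken up with the microglial genes.

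The lists of reactive astrocyte genes were drawn up in other work from injury and inflammation models, and the study names several of their members in these same libraries, so their direction is not independent evidence. Of 11 tested A1 genes, 8 rose (72.7%) and 1 fell (9.09%). Of 10 tested A2 genes, 3 rose and 3 fell (30% each). Among all tested genes the shares were 14.9% higher and 18.4% lower. Of the A1 members RT1-S3, Amigo2 and Srgn rose by 2.98, 1.16 and 1.11, while Fbln5 fell (-3.24) and Fkbp5 (-0.20) and Ggta1 (-0.24) did not pass. In the A2 list Ptx3, a soluble pattern recognition protein, had 10.6, 12.2 and 13.8 in controls and 168, 182 and 179.9 with fibrils (log2 fold change 3.83, SE 0.14, adjusted p = 1.09e-08), Tgm1 rose by 1.49, and S100a10 (-0.80), Tm4sf1 (-0.57) and B3gnt5 (-1.82) fell. Among the 13 genes common to both states, 8 rose and 3 fell. Serpina3n, Cd44, Osmr and Timp1 rose by 2.25, 1.63, 1.49 and 0.52. The 3 that fell are cytoskeletal or chaperone genes usually raised in reactive astrocytes, the intermediate filaments Gfap and Vim and the small heat shock protein Hspb1. Gfap had 3436, 1886 and 3196 in controls and 1505, 1543 and 1673 with fibrils (log2 fold change -0.85, SE 0.19, adjusted p = 0.00561), with control replicate 2 the lowest control, and Vim had 10602, 5972 and 6779.6 and 3940.4, 3488 and 3877 (log2 fold change -1.05, SE 0.19, adjusted p = 0.0014).

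Genes of astrocyte transport and coupling fell for the larger part. Of 25 tested members for glutamate, potassium, water and coupling, 17 fell and 6 rose, with a median of -1.03. The potassium channel gene Kcnj16 fell from 10.6, 15.3 and 10.4 to 0.727, 1.02 and 1.86 (log2 fold change -3.26, SE 0.34, adjusted p = 2.49e-05), and the sodium pump subunit Atp1b2 fell as well (-1.47). The potassium channel Kcnj10 (-1.35), the GABA transporter Slc6a11 (-3.38), the glutamine transporter Slc38a3 (-2.32) and the gap junction gene Gja1 (-0.67) fell. The glutamate transporters went apart, since Slc1a3 fell from 2069.7, 1992 and 1851 to 1181, 1038 and 1103 (log2 fold change -0.83, SE 0.11, adjusted p = 1.47e-04) while Slc1a2, at a low level in these cultures, rose from 4.73, 6.7 and 4.71 to 15.4, 13.8 and 13 (log2 fold change 1.41, SE 0.18, adjusted p = 1.26e-04). The water channel Aqp4 rose by 0.53 (adjusted p = 0.0197), the monocarboxylate transporter Slc16a1 by 1.65 and the metabotropic receptor Grm3 by 2.32. Glul, glutamine synthetase, had 1765, 1141 and 1349.7 in controls and 1511, 1591 and 1638 with fibrils, with overlapping groups (0.16, adjusted p = 0.458). None of the 25 members was among the microglia-enriched genes.

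Markers and transcription factors of astrocyte identity fell in 17 of 33 tested members and rose in 4. Sox9, which specifies astrocytes, had 377, 384 and 236 and 173, 203 and 163 (log2 fold change -0.88, SE 0.18, adjusted p = 0.00284), and Nfia (-0.71) and Zbtb20 (-0.91) fell, while Sox2 (-0.13), Lhx2 (-0.41), Nfib (-0.17) and Pax6 (0.055) did not pass the test. S100b, a calcium-binding marker, had 2208, 1509 and 1422 and 656, 698 and 679 (log2 fold change -1.34, SE 0.16, adjusted p = 7.19e-05). Ntsr2, a neurotensin receptor of astrocytes, was the lowest, from 23.7, 30.4 and 26.2 to 0.624, 1.34 and 1.39. The 4 that rose were the folate enzyme gene Aldh1l1 (38.7, 29 and 48.5 and 94.4, 109 and 115, log2 fold change 1.44, SE 0.18, adjusted p = 1.12e-04), Acsbg1 (1.53), and Id1 (1.19) and Id3 (1.85), inhibitors of differentiation factors. For Id3 control replicate 2 was the lowest library, at 23 against 64.6 and 69 in the other controls.

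Cell cycle genes fell almost throughout. Of 50 members 48 were tested and 42 fell, 14 of them at least 5-fold, with a median of -1.60. Mki67, the proliferation marker, had 163, 298 and 165 scaled CPM in controls and 27.5, 28.4 and 30.3 with fibrils (log2 fold change -2.85, SE 0.23, adjusted p = 3.89e-06). Top2a, which untangles chromosomes, had 135, 221 and 127 and 27.3, 25.6 and 28.5 (log2 fold change -2.57, SE 0.21, adjusted p = 4.09e-06). Rrm2, which supplies deoxynucleotides, had 47.9, 47.2 and 46.8 and 6.76, 8.45 and 7.5 (log2 fold change -2.63, SE 0.14, adjusted p = 1.75e-07). Control replicate 2 was the highest control for Mki67 and Top2a, and the 3 controls were alike for Rrm2. The replication genes Mcm5 (-2.55) and Cdc6 (-2.88, the lowest member), the mitotic kinases Cdk1 (-1.58), Plk1 (-2.36) and Bub1b (-2.63), and the cyclins Ccna2 (-2.63) and Ccnb1 (-2.06) fell. Ccnd1, the cyclin of early growth, fell less (-0.56). The cyclin-dependent kinases of that phase, Cdk4 (-0.27) and Cdk6 (0.42), and Ccnd3 (0.48) and Tyms (-0.22) did not pass the test. Tpx2 was the exception at 0.54 (adjusted p = 0.0455), a call lost when any library but control replicate 2 was left out. None of the 48 was microglia-enriched. Birc5, or survivin, fell from 32.8, 18.4 and 21.2 to 4.88, 5.67 and 5.78, and its promoter is printed from chr10:103571896-103572145 (plus strand of GRCr8) because it holds TTTGAA, letters of the cell cycle homology region, and CCAAT, both in capitals together with 1 match to the κB letters. RefSeq promoters were matched for 75% of the list, so no share of promoters is given.
Birc5: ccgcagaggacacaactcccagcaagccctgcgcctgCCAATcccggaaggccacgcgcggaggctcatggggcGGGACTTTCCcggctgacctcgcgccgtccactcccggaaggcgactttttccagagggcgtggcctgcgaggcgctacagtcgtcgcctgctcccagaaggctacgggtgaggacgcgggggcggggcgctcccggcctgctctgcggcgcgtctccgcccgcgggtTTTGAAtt

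Among cell cycle inhibitors and p53 targets, 5 of 21 rose (23.8%, against 14.9% of all tested genes), or 8 without control replicate 2. Only 2 fell (9.52%, against 18.4%). Cdkn2b rose from 15.3, 18.9 and 18 to 77, 63.9 and 72.5 (log2 fold change 2.02, SE 0.14, adjusted p = 1.49e-06) and Cdkn2a by 2.41, both inhibitors of Cdk4 and Cdk6, whereas Cdkn1a, the main p53 target, had 400.5, 199 and 312 and 349.6, 416 and 419.9 with overlapping groups (0.38, adjusted p = 0.196), and Mdm2 stood at 0.12. Sesn1, a stress-response gene, was the lowest at -0.82. Genes of apoptosis and necroptosis rose in 12 of 25 tested members and fell in none. Pro-death members rose, Bid by 2.80 and Casp8 by 1.37, and so did the inhibitors Birc2, from 50.4, 68 and 64.4 to 404, 376 and 377 (log2 fold change 2.66, SE 0.14, adjusted p = 1.52e-07), and Cflar, by 1.33. The survival genes Bcl2 (-0.40) and Mcl1 (0.23), and Bcl2a1, the lowest member (-0.47), did not pass the test.

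**Figure D4:**
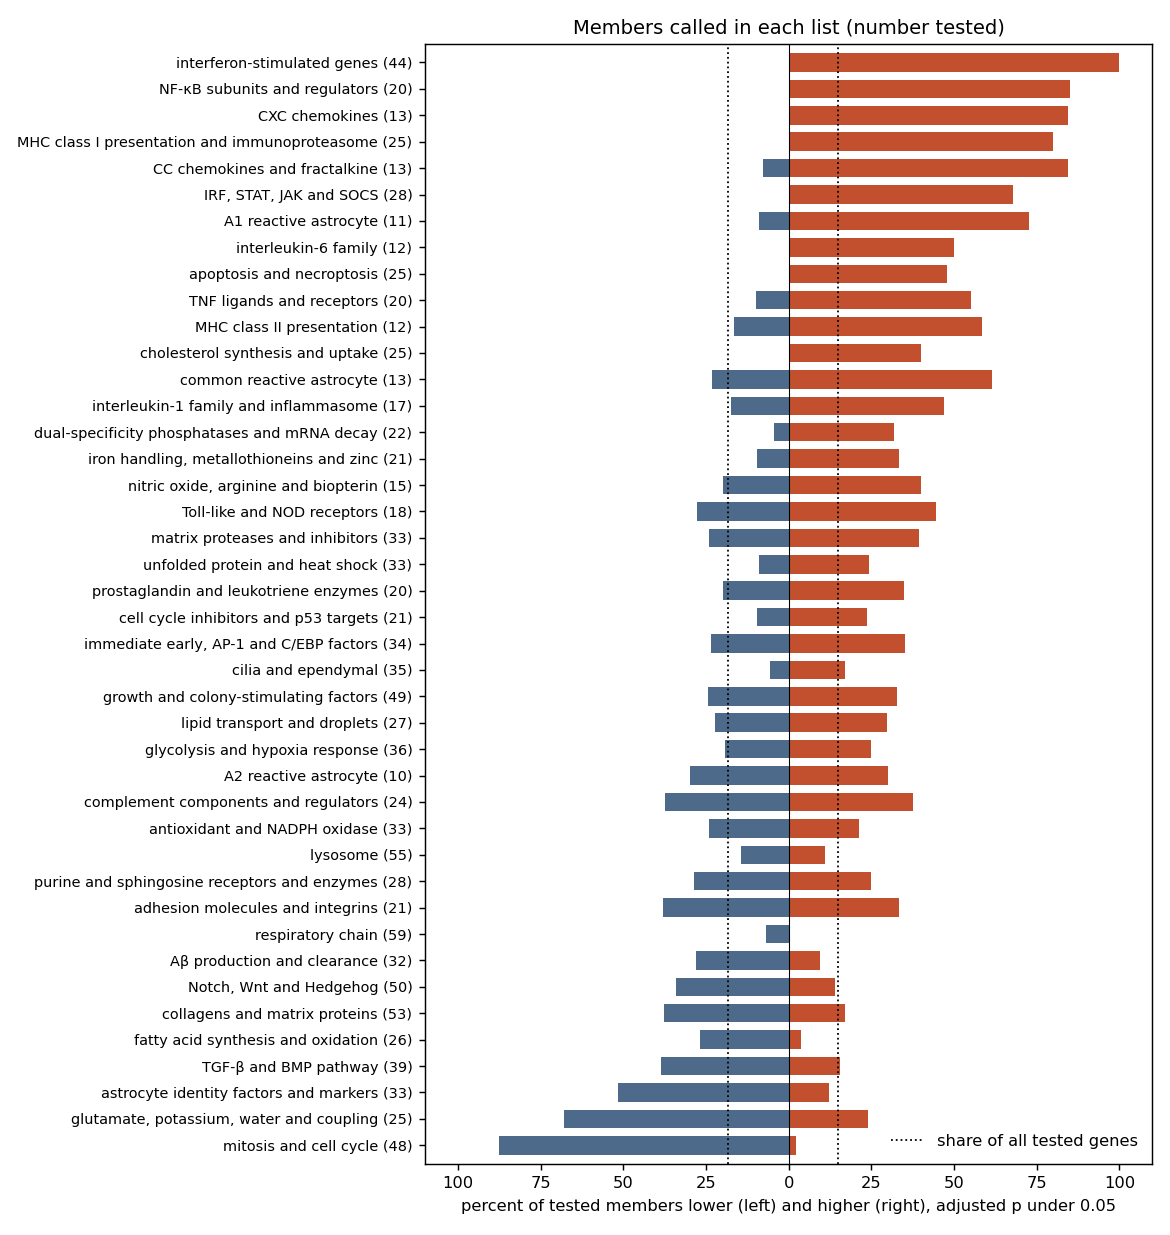
For each gene list, cell type markers aside, the share of tested members that were lower (blue, to the left) and higher (red, to the right) in the Aβ40 group and passed the test, in percent, with the number tested in brackets. Dotted lines mark the shares among all tested genes, 18.4% lower and 14.9% higher. Interferon-stimulated genes stand at 100% higher at the top and mitosis and cell cycle at 87.5% lower at the bottom.

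Lipid genes moved in both directions. Of 25 cholesterol genes, 10 rose (6 without Aβ40 replicate 1 or 3) and none fell. Lss and Hsd17b7, enzymes of the synthesis, rose by 1.34 and 1.24. Msmo1 was the lowest at -0.054. Of 26 fatty acid genes 1 rose (5 without control replicate 3) and 7 fell (26.9%, against 18.4% of all tested genes). The desaturase Fads1 fell from 463, 413 and 454 to 237, 229 and 243 (log2 fold change -0.91, SE 0.10, adjusted p = 4.40e-05), and Fads2 (-0.93) fell too. Ppara, a regulator of fatty acid oxidation, had the highest value, 1.02, and did not pass the test (adjusted p = 0.0509). Among lipid carriers 8 of 27 rose (29.6%, against 14.9% of all tested genes) and 6 fell (22.2%, against 18.4%). Apoe, the main lipid carrier of brain, had 3554, 1559.9 and 2144 in controls and 1126, 1186 and 1209 with fibrils (log2 fold change -1.04, SE 0.24, adjusted p = 0.00586), and its level was 3.62 times higher in untreated microglia than in untreated astrocytes. Apol3 rose by 5.07, the oxysterol hydroxylase Cyp7b1 by 2.24 and the droplet coat gene Plin2 by 0.98, while Lpl (-2.07) and Apoc1 (-2.24) fell.

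Energy and housekeeping pathways differed in how many members changed. Of 59 respiratory chain subunits none rose and 4 fell (6.78%, against 18.4% of all genes), namely Uqcrh (-0.996), Cox6c (-0.94), Ndufb3 (-0.79) and Ndufv3 (-0.41), with a list median of -0.21. Ndufa7 (0.38) and Ndufs6 (-1.44), at the ends of the list, did not pass the test. The number of subunits that fell was unstable, 14 without control replicate 2 or 3, 2 without Aβ40 replicate 2 and 1 without control replicate 1 or Aβ40 replicate 3. In glycolysis and the hypoxia response 9 of 36 rose (25%, against 14.9% of all genes). Another 7 fell (19.4%, against 18.4%), or 12 without control replicate 2 and 4 without Aβ40 replicate 2. Hif1a (0.83), Epas1 (1.32), Hk2 (0.80) and Pfkfb3 (0.64) rose, while Gapdh (-0.0048), Pkm (0.052), Ldha (0.24) and Slc2a1 (-0.20) did not pass the test. Hk3, a hexokinase of myeloid cells, fell (-1.60). Slc16a3 had the highest value, 2.56, on 1.11, 0 and 0.352 in controls and 1.66, 3.0 and 2.66 with fibrils. Of 33 unfolded protein and heat shock genes 8 rose (24.2%, against 14.9% of all genes), or 4 without Aβ40 replicate 2 or 3. From the same list 3 fell (9.09%, against 18.4%), or 5 without control replicate 3. Ddit3 rose from 29.5, 26.8 and 29.1 to 94.5, 95 and 110.2 (log2 fold change 1.81, SE 0.13, adjusted p = 1.36e-06), Trib3 by 2.002, Atf4 by 0.59 and Xbp1 by 0.36, whereas the chaperone Hspa5, induced by misfolded protein, stood at 0.069 (adjusted p = 0.653), and Hspe1 (-0.82) and Cryab (-1.08) fell. Lysosomal genes rose in 6 (10 without control replicate 2, 3 without Aβ40 replicate 1 or 3) and fell in 8 of 55 (5 without control replicate 1, 4 without Aβ40 replicate 2, 3 without Aβ40 replicate 1 or 3), from Ctsh at 0.79 to the microglial marker Cd68 at -1.46. These are 10.9% and 14.5% of the lysosomal list, both under the shares of all genes. Cilia genes rose in 6 (10 without control replicate 2) and fell in 2 of 35 (7 without control replicate 3, 1 without Aβ40 replicate 1), between -0.59 for Armc3 and 0.62 for Spag6 among those that passed, and the extreme values of Rsph9 (0.63) and Meig1 (-0.63) did not pass. These are 17.1% and 5.71% of the cilia list, against 14.9% higher and 18.4% lower of all genes.

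Of 32 genes of Aβ production and clearance, 3 rose (9.38%, against 14.9% of all tested genes) and 9 fell (28.1%, against 18.4%). App, the precursor of the peptide, had 761, 738 and 862 in controls and 824, 827 and 884 with fibrils, with overlapping groups (0.10, adjusted p = 0.503). Psen2, a catalytic subunit of γ-secretase, rose by 1.20 and the α-secretase Adam17 by 0.64, while Bace1 (0.30), Adam10 (-0.17), and the Aβ-degrading enzymes Mme (0.016) and Ide (-0.18) did not pass the test. Sorl1, a sorting receptor of App, fell from 129, 155 and 149.7 to 60.4, 57.7 and 58.6 (log2 fold change -1.30, SE 0.12, adjusted p = 8.79e-06). The receptors Trem2 (-5.49), Clec7a (-4.28) and Msr1 (-1.87), known from microglia, fell.

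Immediate early and C/EBP factors rose in 12 (35.3%, against 14.9% of all tested genes) and fell in 8 of 34 (23.5%, against 18.4%). Maff (2.88), Ier3 (2.15), Cebpb (1.86) and Klf4 (1.72) rose, and the serum-responsive Egr1 (-1.06), Egr2 (-1.04), Jun (-0.80), Myc (-0.62) and Mycn (-1.87) fell. Junb had 82.9, 23.9 and 97.3 in controls and 159.5, 296 and 272 with fibrils, and Cebpd had 173, 34 and 155 and 336, 482 and 430.1, in both with control replicate 2 far below the other controls. Zc3h12a, a ribonuclease that degrades cytokine mRNAs, rose by 3.998 and was the highest of 22 phosphatase and mRNA decay genes, of which 7 rose and 1, Spry1, fell (-2.13), or 2 without control replicate 3. Zfp36, another decay factor, stood at 0.12 (adjusted p = 0.755). Of 28 purine and sphingosine genes 7 rose (25%) and 8 fell (28.6%, or 5 genes without Aβ40 replicate 3), against 14.9% and 18.4% of all tested genes. They ran from the ATP receptor P2rx5 at 3.06 and P2ry6 at 1.93 to the adenosine-forming Nt5e at -2.94. Of the 8 that fell, 3 were at least 10-fold higher in untreated microglia than in untreated astrocytes.

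Microglial genes, present in the untreated cultures, fell as a block. Of 23 microglial markers 21 fell, 17 of them at least 5-fold, and none rose (1 without control replicate 3). Csf1r, the receptor on which microglia depend, had 124, 113 and 134 scaled CPM in controls and 3.01, 2.57 and 3.25 with fibrils (log2 fold change -5.40, SE 0.19, adjusted p = 1.02e-08). Cx3cr1 had 500 control reads and 2 treated reads, a ratio of 493 (interval 136 to 4084). Every treated library was far below the controls for both genes. The marker Sall1 (-0.19, adjusted p = 0.234), which other cells also express, did not pass the test. The summed markers were 1143 ± 65.5 (SD, n = 3) in controls and 388 ± 10.9 (SD, n = 3) with fibrils, without overlap (exact permutation p = 0.1, the smallest that 3 libraries against 3 can give). In bulk RNA, fewer microglia and less of these RNAs per microglial cell cannot be told apart.

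**Figure D5:**
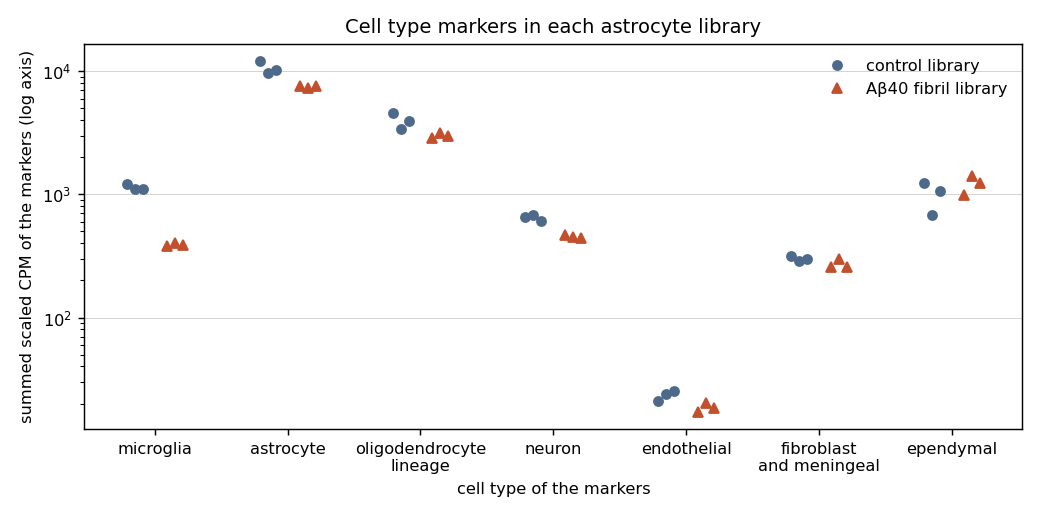
Summed scaled CPM (log axis) of the markers of 7 cell types in the 3 control libraries (circles) and the 3 Aβ40 fibril libraries (triangles). Microglial markers fall from a mean of 1143 to 388, while ependymal markers overlap between the groups and astrocyte markers lie at 7349 to 7601 with fibrils against 9763 to 12012 in controls.

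Relative to their control levels, the summed markers of other cells differed less between the groups. Astrocyte marker sums, given above, did not overlap between the groups (exact p = 0.1). Sums over oligodendrocyte lineage markers were 3972 ± 616 (SD, n = 3) in controls and 2989 ± 127 (SD, n = 3) with fibrils, with 7 of 16 lower and only Gpr17 higher (none without control replicate 1 or Aβ40 replicate 3), and sums over neuronal markers were 650.4 ± 35.9 (SD, n = 3) and 453 ± 10.3 (SD, n = 3), with 8 of 12 tested lower (5 without Aβ40 replicate 3) and Gad1 higher (both exact p = 0.1). Endothelial markers were near 0, with Cldn5 and Ly6c at 0 in all 6 libraries. Their sum was 23.3 ± 2.19 (SD, n = 3) in controls and 18.6 ± 1.58 (SD, n = 3) with fibrils (exact p = 0.1). Fibroblast and meningeal markers (exact p = 0.2) and ependymal markers (exact p = 0.5) overlapped between the groups, the latter with control replicate 2 lowest at 683. Scaled by library totals in place of TMM, the fibroblast and meningeal sums did not overlap (exact permutation p = 0.1). They were 311, 304 and 310 in controls and 257, 293 and 252 with fibrils.

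To place all genes that changed, each was set against the untreated microglia of the series. Of 11269 genes tested here and listed in both cell types, 312 (2.77%) were at least 10-fold higher in untreated microglia than in untreated astrocytes. These microglia-enriched genes made up 35.1% of the 296 genes of this set that were 5-fold lower, 12.4% of the 323 that were 5-fold higher and 0.878% of the 7513 not called. Of the 312, 176 fell (56.4%, 104 at least 5-fold) and 70 rose, 40 at least 5-fold, among them Il1b and Ccl3. With all microglia-enriched genes left out, 200 genes were 5-fold lower and 290 were 5-fold higher, among 1973 lower and 1669 higher genes. Genes not listed in microglia stayed in these counts. Untreated astrocytes already held microglial RNA, so the 10-fold cut does not remove all microglial genes. The 200 still hold 5 microglial markers, among them Cx3cr1 and C1qb, at 1.38 and 5.40 times the astrocyte level in untreated microglia. Of the 15 genes that fell with the smallest p-values, Csf1r, Fcrl2 (-5.67), Lyz2 (-3.98), Arhgap25 (-4.93) and Arhgdib (-3.10) were microglia-enriched, and C1qb, Cx3cr1, Pld4 (-7.59), Anxa3 (-4.38) and Gpr84 (-5.65) were higher in microglia by less than 10-fold. The others had lower levels in microglia than in astrocytes, among them Rrm2, Gldn, Sstr4 and Sned1. Gldn, or gliomedin, fell from 109, 115 and 107 to 12.6, 11.2 and 10.8 (log2 fold change -3.26, SE 0.14, adjusted p = 3.28e-08) at a level in untreated microglia of 0.0163 times that in astrocytes. Sstr4, a somatostatin receptor, had a log2 fold change of -3.75 and Sned1 of -3.84.

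Against astrocytes exposed to Aβ42 fibrils, the most similar condition, 10 genes (0.0855% of tested genes) passed the test, and 737 had an unadjusted p-value under 0.05, and the number ranged from 0 to 265 over other analyses, with 0 to 4 whichever of the 6 fibril libraries was left out. Members of this set are named after their values were seen, and the comparisons of each fibril with controls share the control libraries. Ptges had 64.6, 71.9 and 73.5 with Aβ40 and 152, 158 and 148 with Aβ42 fibrils, a log2 difference of Aβ40 minus Aβ42 of -1.12 (adjusted p = 0.0072). Lower with Aβ40 fibrils were also Cd93 (-1.50), Mmp3 (-1.25), Pnoc (-1.10), Lif (-0.97) and Csf3 (-0.96). Slco1c1, a transporter, was lower as well (adjusted p = 0.0208), with 7 reads in all Aβ40 libraries, at 0.208, 0.107 and 0.199 scaled CPM against 1.1, 1.31 and 1.68 with Aβ42. Higher were Fmod (1.27) and Chrdl1 (0.83). Fmod, or fibromodulin, had 108, 112 and 115 in controls, 73, 88.6 and 86.7 with Aβ40 and 35.1, 32.9 and 35.2 with Aβ42 fibrils (adjusted p = 0.0072). Ptges, Mmp3, Lif and Csf3 rose with both fibrils and reached the lower level with Aβ40, and Fmod and Chrdl1 fell with both and fell less with Aβ40.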

How the data were processed

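The authors deposited whole-number read counts per gene symbol for each of the 18 libraries. Per the labels their processing notes name STAR, Salmon and DESeq2 and the rat build rn5, without versions or roles. The members and gene lists were chosen with earlier results of these data known. Rows for reads outside single genes were left out of totals and tests. The counts of the 9 astrocyte libraries were filtered with filterByExpr, scaled by TMM and fitted together with edgeR's quasi-likelihood test (edgeR 4.0.16, limma 3.58.1, R 4.3.3), so that the groups shared 1 estimate of the spread, and p-values were adjusted by the Benjamini-Hochberg method over 11690 tested genes. The threshold was an adjusted p-value of 0.05, with 5-fold as the study's cut-off. Standard errors were derived from the fitted change and its F statistic. Cell type marker sums were compared by 2-sided exact permutation tests. Counting intervals cover counting error only.

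Genes named were members of the lists, each list's extremes and the 15 leading genes in each direction; the genes that differed between fibrils were added after their values were seen. Enrichment in microglia used the mean CPM of untreated libraries of each cell type, with at least 1 in microglia and 0.5 added to both. Alternatives were DESeq2 (1.42.0) as a test and its size factors, library totals, no filter, 10 counts in every library, the compared groups alone, a replicate block and leaving out each library. Leaving out microglia-enriched genes was chosen after seeing the data. Values of some single genes are not reported here, although they remain in the counts of their lists. The fitting was tested on simulated counts with known changes.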

Additional observations from a re-analysis of the deposited data

How the results depend on the processing

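Of 4968 values of 389 named genes under the alternatives, 4792 kept direction and side of the threshold, 104 lost the call, 34 gained it and 38 changed sign, all of the last among genes that had not passed the test. The calls lost were those of 24 genes, each also lost in at least 1 fit that left out a library, and the highest adjusted p of each gene in edgeR's quasi-likelihood test came from the following libraries. Without control replicate 1 it was Bcan 0.0762, Cox6c 0.0776, Ndufb3 0.0905 and Tpx2 0.134. Without control replicate 3 it was Nkd1 0.0514, Ptger3 0.185, Slc16a3 0.0648 and Srgn 0.0602. Without Aβ40 replicate 1 it was Aqp4 0.0666, Armc3 0.0806, Fmod 0.0875, Ltbp3 0.0842, Ncf4 0.0741, Ndufv3 0.169, Nlrp3 0.0892, Notch1 0.101 and Xbp1 0.136. Without Aβ40 replicate 2 it was Cyba 0.0868, Gja1 0.0629, Ifitm1 0.0838, Tm4sf1 0.127 and Vcan 0.106. Without Aβ40 replicate 3 it was Gpr17 0.08 and Irak1 0.116. Of 1274 counts of list members, 96 moved by more than 1.5 times. Requiring 10 counts in every library, which removes genes near the detection limit, left 135 genes 5-fold higher, 123 genes 5-fold lower and 6 that differed between Aβ40 and Aβ42 fibrils. Without the microglia-enriched genes 200 were 5-fold lower, with 5 microglial markers under the 10-fold cut still among them. Between the fibrils DESeq2 called 141 genes and the fit of these groups alone 265. Leaving out a library gave 0 to 4 of them (4 without Aβ42 replicate 1, 1 without Aβ40 replicate 1), 1324 to 2326 higher and 1631 to 2635 lower genes against control, and 330 to 358 and 317 to 344 at 5-fold. The cause was not tested. Deviations of log2 levels from the group mean correlated at -0.37, -0.39 and 0.19 between same-numbered control and Aβ40 replicates. With 3 libraries a group such deviations depend on each other, so they cannot decide whether the numbers pair the samples. With the replicate block 1438 genes were higher and 1771 lower, 333 and 303 of them 5-fold, and 0 differed between fibrils. Values of uncalled genes that changed sign ranged, when a library was left out, over Calr -0.0524 to 0.18, Canx -0.18 to 0.0267, Cdk4 -0.52 to 0.0249, Ftl1 -0.22 to 0.63, Gapdh -0.32 to 0.20, Gclm -0.25 to 0.0183, Hmox1 -0.0770 to 0.33, Irf3 -0.0821 to 0.28, Irf8 -0.15 to 0.11, Map3k14 -0.36 to 0.0699, Mdm2 -0.0180 to 0.33, Mme -0.31 to 0.47, Msmo1 -0.17 to 0.0645, Ndufa7 -0.0254 to 0.82, Nfib -0.34 to 0.16, Pf4 -0.36 to 0.0709, Pkm -0.12 to 0.16, Socs4 -0.30 to 0.00675 and Zfp36 -0.0896 to 0.40 (log2). These genes also changed sign under DESeq2's Wald test, Mme -0.0168, and under library totals, Calr -0.0137 and Mme -0.0400, and without a filter, Gapdh 0.0181 and Irf8 0.00861, and under the replicate block, Gapdh 0.0470 and Irf8 0.00897. The shallowest library sets what was detectable, and with 3 libraries a group no exact test of 1 value can fall below 0.1.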
